A study of Mus musculus with 4 samples.

Results

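The loci of 9 mesenchymal transcription factor genes, Twist1, Twist2, Snai1, Snai2, Zeb1, Zeb2, Prrx1, Prrx2 and Tcf21, were followed in chromatin accessibility data from fibroblasts that had lost Ash2l. Ash2l is a core subunit of the KMT2 complexes, which methylate lysine 4 of histone H3. ATAC-seq, in which a transposase cuts open chromatin and tags it for sequencing, had been carried out on iMEF2 cells, an immortalized Ash2l fl/fl mouse embryo fibroblast line that carries a Cre-ER recombinase and an shRNA against p19Arf. Cells received 5 nM 4-hydroxytamoxifen for 7 days (+HOT, Ash2l deleted) or the ethanol vehicle for the same time (-HOT), with 2 technical replicate libraries in each condition. All 4 libraries came from the same floxed line with the same Cre-ER and p19Arf knockdown, so p-values measure the spread between technical replicates and not between cultures or embryos, and the drug and Cre activity cannot be told apart from the loss of Ash2l. Intervals of the deposited count table were taken when their centre lay in one of the 9 gene bodies or within 50 kb of it (GENCODE vM1, mm9). This gave 140 of the 119609 intervals, all of which had enough reads to be tested. In addition, the 8 motif rows for TWIST1, SNAI1, SNAI2, SNAI3, ZEB1, PRRX2 and TCF21 were taken from a deposited footprint table with 709 motifs; it holds 0 rows for PRRX1.

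These genes encode DNA-binding factors that build and keep the mesenchymal state. TWIST1, TWIST2 and TCF21 are basic helix-loop-helix proteins that pair with E proteins on the E-box, a short palindrome-like element with the letters CANNTG. SNAI1, SNAI2, ZEB1 and ZEB2 are zinc finger repressors that favour the E-box CAGGTG and silence epithelial genes such as E-cadherin, and PRRX1 and PRRX2 are paired-type homeodomain proteins of limb and craniofacial mesenchyme whose recognition core is TAATTA. Several of the factors, the SNAI and ZEB repressors among them, drive the epithelial-to-mesenchymal transition (EMT), and fibroblasts commonly express some of these genes.

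The site that moved furthest at Prrx1, Prrx2, Twist1, Snai2 and Tcf21 is shown first, because the values below refer back to it. Stretches of 2 promoters, taken at unlike positions, are shown with these sites. Each line gives the mm9 position, the strand on which the gene lies and the log2 fold change of +HOT over -HOT of the interval that holds the sequence. Capitals mark CANNTG or TAATTA on either strand.
Twist2 promoter (chr1:93697738-93698037, plus strand, -0.78): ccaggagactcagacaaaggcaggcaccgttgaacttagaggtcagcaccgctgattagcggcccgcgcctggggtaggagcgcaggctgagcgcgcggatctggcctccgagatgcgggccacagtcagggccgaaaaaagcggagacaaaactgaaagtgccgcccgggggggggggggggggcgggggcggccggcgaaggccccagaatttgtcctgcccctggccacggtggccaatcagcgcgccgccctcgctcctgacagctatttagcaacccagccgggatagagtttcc
Prrx1 intronic site (chr1:165237867-165238166, minus strand, -1.69): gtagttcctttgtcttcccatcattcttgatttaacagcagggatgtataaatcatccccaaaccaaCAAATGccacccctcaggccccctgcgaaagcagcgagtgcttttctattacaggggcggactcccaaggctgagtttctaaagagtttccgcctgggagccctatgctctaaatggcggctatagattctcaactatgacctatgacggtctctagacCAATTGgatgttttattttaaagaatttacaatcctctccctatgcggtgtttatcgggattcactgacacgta
Prrx2 intronic site (chr2:30698135-30698434, plus strand, -1.13): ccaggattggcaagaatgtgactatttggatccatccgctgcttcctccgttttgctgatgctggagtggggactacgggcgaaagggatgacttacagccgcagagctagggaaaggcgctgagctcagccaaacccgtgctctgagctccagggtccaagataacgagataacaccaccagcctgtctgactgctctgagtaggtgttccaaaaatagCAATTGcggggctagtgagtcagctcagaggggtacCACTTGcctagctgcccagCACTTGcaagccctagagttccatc
Twist1 downstream site (chr12:34652169-34652468, plus strand, -0.87): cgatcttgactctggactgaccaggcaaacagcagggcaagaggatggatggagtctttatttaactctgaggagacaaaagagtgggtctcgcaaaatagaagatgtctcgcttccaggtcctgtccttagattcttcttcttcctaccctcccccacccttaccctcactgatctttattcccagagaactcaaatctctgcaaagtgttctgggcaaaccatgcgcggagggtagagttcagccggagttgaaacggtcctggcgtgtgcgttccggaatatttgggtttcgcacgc
Snai2 upstream site (chr16:14697584-14697883, plus strand, 1.80): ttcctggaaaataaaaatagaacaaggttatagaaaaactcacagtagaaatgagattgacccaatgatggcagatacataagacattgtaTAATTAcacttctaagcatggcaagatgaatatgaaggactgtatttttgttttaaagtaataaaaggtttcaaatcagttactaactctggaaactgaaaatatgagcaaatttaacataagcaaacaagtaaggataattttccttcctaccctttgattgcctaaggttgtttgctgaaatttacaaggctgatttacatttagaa
Tcf21 downstream site (chr10:22502579-22502868, minus strand, 1.08): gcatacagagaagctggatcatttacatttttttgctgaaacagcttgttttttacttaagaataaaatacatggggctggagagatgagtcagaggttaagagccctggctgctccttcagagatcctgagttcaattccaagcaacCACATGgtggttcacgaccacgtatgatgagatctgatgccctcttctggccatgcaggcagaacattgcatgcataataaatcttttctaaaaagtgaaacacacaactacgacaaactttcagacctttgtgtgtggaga
Snai1 promoter site (chr2:167363956-167364255, plus strand, -0.28): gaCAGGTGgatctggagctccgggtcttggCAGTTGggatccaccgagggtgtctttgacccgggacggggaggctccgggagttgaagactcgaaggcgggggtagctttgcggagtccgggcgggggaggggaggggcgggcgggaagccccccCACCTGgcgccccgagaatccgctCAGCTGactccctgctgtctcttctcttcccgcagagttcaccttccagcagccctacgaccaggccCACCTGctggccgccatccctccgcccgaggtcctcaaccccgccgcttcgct

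The Twist2 sequence is the 300 bases before the annotated start and the others are the central 300 bases of their interval, or all 290 bases of it at Tcf21. The Twist2 promoter stretch and the Twist1 downstream site hold 0 E-boxes, and so does the Snai2 upstream site, which has 1 TAATTA. The Snai1 promoter window holds 5 E-boxes, 3 of which read CAGGTG on one of the strands, and overlaps 1 exon. It lies after the start, unlike the Twist2 stretch, and the 300 bases before the Snai1 start hold 1 E-box. None of the other printed windows overlaps an exon. When each sequence was divided into stretches of 50 bases, every stretch occurred once in the genome. Over all intervals, 78.1% have CANNTG in their central 300 bases, 13.9% have CAGGTG and 6.82% have TAATTA, so such letters are frequent and a match is not evidence of a bound factor.

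Read depth in the intervals was 28117900 and 21356440 in the +HOT libraries and 37151163 and 30411621 in the -HOT libraries. At the 140 sites the +HOT libraries held a median of 167 and 133 reads and the -HOT libraries 206.5 and 178.5, with 11 to 2143 reads in a single site and library. Levels are given as CPM, that is read counts scaled to a common library size with TMM factors. Promoter sites were present for all 12 fibroblast markers examined, among them Col1a1, Pdgfra and Vim, with a summed level of 368 and 353 CPM in +HOT and 443 and 423 CPM in -HOT. Of 10 blood markers, 4 had a promoter site (31.2 and 28.1 CPM in +HOT, 53.2 and 54.8 CPM in -HOT), and Ptprc, the common leukocyte antigen, had none. Of 10 endothelial markers 8 had one (62.5 and 59.4 CPM in +HOT, 88.7 and 82.4 CPM in -HOT). Reads on the mitochondrial chromosome made up 1.60% and 1.68% in +HOT and 1.11% and 1.19% in -HOT. Whether these differences have a part in the results below was not tested. In bulk cells, fewer cells with an open site and less opening per cell cannot be told apart.

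First, the extent and direction of the changes were determined. A site was called gained or lost where it changed by more than 0.40 in either direction on the log2 scale and its adjusted p was below 0.05. The p-values came from edgeR's quasi-likelihood test, were adjusted after Benjamini and Hochberg over all 119603 tested sites, and are the source of every adjusted p below. Of the 140 sites 20 gained accessibility (14.3%), against 21.3% of all tested sites, and 30 lost it (21.4%), against 14.2% of all tested sites. The remaining 90 were not called. The median log2 fold change was -0.15, and lay between -0.16 and -0.13 when each +HOT library was set against each -HOT library (4 pairs), while the median of all tested sites was 0.00. Both +HOT libraries lay above both -HOT libraries at 37 sites and below them at 69, while 36.1% and 34.7% of all tested sites did so. How calls split between gained and lost depended on scaling. With TMM factors from distal sites alone 17 of the 140 sites were gained and 42 lost (21791 and 22832 of all sites), and with scaling to library totals 24 and 25 (28921 and 12662 of all sites). Without the first -HOT library 12 sites were gained and 25 lost (18620 and 13891 of all sites), and DESeq2 called 9 gained and 20 lost (15087 and 11960 of all sites).

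**Figure D1:**
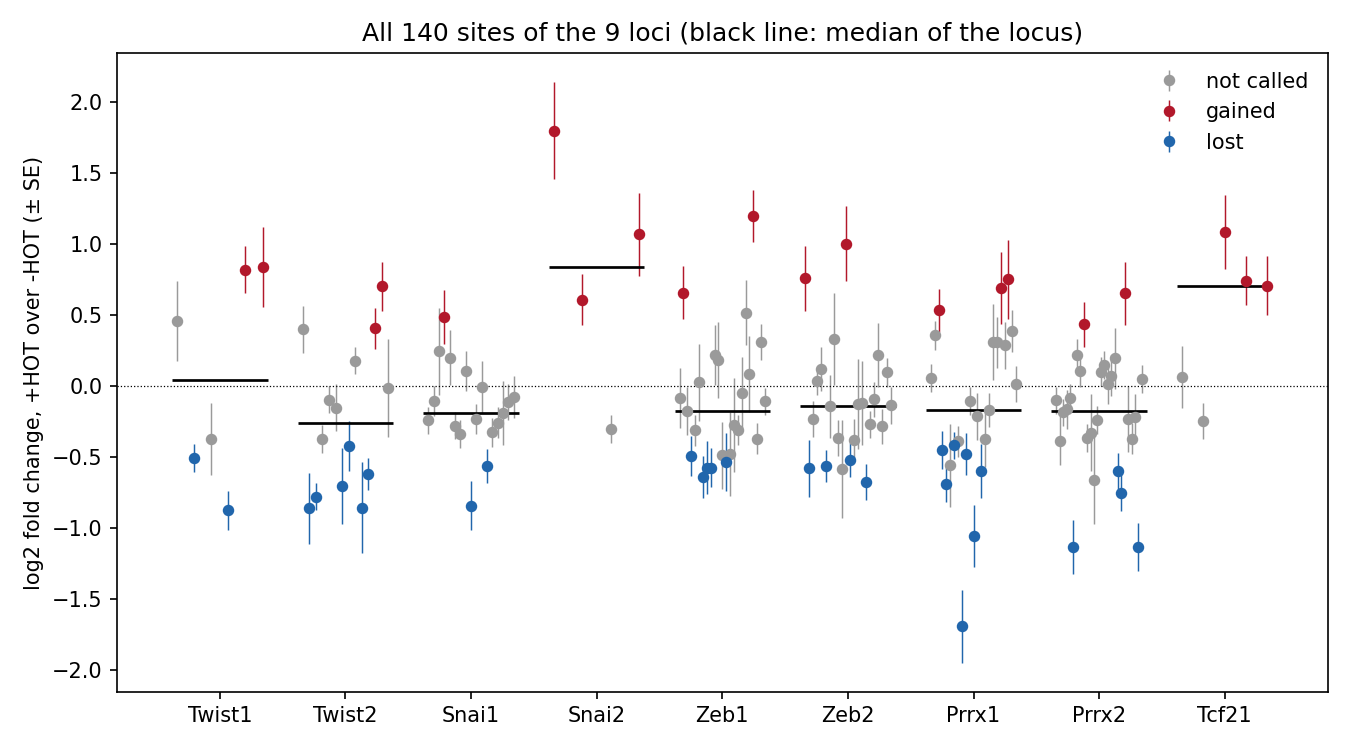
Log2 fold change of +HOT over -HOT with its standard error for each of the 140 sites, ordered by distance from the start site within each locus, with gained sites in red, lost sites in blue and other sites in grey. Snai2 and Tcf21 have 3 gained and 0 lost sites each, and Twist2 and Prrx1 have 6 and 7 lost sites.

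Calls were then counted by locus. At Snai2, a zinc finger repressor prominent in neural crest and fibroblasts, 3 of 4 sites were gained and 0 lost. At Tcf21, a factor of epicardial and visceral fibroblasts, 3 of 5 were gained and 0 lost, but only 1 without the first -HOT library. The gained sites of both loci lay outside the genes, and 28.4% of all intergenic intervals were gained. More sites were lost than gained at Twist2 (6 lost, 2 gained, 14 sites), Prrx1 (7 lost, 3 gained, 23 sites), Zeb1 (5 lost, 2 gained, 23 sites), Zeb2 (4 lost, 2 gained, 22 sites), Prrx2 (4 lost, 2 gained, 26 sites) and Snai1 (2 lost, 1 gained, 17 sites). Twist1 had 2 of each among 6 sites. These counts moved with the processing. DESeq2 called 2 lost and 1 gained at Twist2 and 4 lost and 0 gained at Prrx1, and with library totals Prrx1 had 5 lost and 5 gained. Without the first +HOT library Twist2 had 3 lost sites and Prrx1 5 lost and 4 gained. These are counts of a few sites per locus, and whether the loci differ from each other was not tested.

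Next, the promoters of the genes were compared. Each promoter was represented by the interval with the highest mean CPM within 3000 bp of a start site, and 8 of the 9 genes had one, Tcf21 being the exception. Distances are from the nearest annotated start of the gene unless the inner or outer start is named. Of the 8 promoter sites 3 were lost, those of Twist1, Twist2 and Prrx1, and 0 gained. Over all promoter intervals 23.5% were lost and 7.07% gained. Both +HOT libraries lay below both -HOT libraries at 59% of all promoter intervals. Counting 1 site per gene, they lay below at 65.5% and above at 9.71%. Per kilobase of interval the 8 promoters were of similar height, at 9.13 to 15.0 CPM per kb in +HOT and 11.1 to 18.2 CPM per kb in -HOT.

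TWIST2, which represses myogenic and osteogenic programmes and marks dermal mesenchyme, had the promoter with the largest fall. The Twist2 site (chromosome 1, 93696757 to 93699656, over the start site and the first exon) held 24.4 and 28.5 CPM in the +HOT libraries and 45.2 and 45.4 CPM in the -HOT libraries. The -HOT libraries were nearly equal, and both +HOT libraries were far below them. The log2 fold change was -0.78 (SE 0.10, adjusted p = 4.8e-11), and the site was called lost under every alternative tried, at -0.89 to -0.57. As printed above, the 300 bases before this start hold 0 E-boxes, whereas 69.6% of the same stretches before 46005 protein-coding starts hold at least 1.

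TWIST1, required for cranial mesenchyme and limb bud outgrowth, had a promoter site of 2677 bp that covers the start and most of the gene (chromosome 12, 34641491 to 34644167). It held 30.9 and 25.5 CPM in +HOT and 41.6 and 38.8 CPM in -HOT, so the conditions did not overlap. The log2 fold change was -0.51 (SE 0.10, adjusted p = 9.4e-06). The GC content of this interval was 63.3%, and the change was -0.28 once the trend of fold change with GC content over all sites was removed, -0.30 with abundance-trended offsets, which remove the trend with signal strength, and -0.38 without the second +HOT library. All 3 values were under the fold minimum.

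The Prrx1 promoter interval was the longest (chromosome 1, 165240918 to 165245536, 4619 bp, its centre 572 bp after a start). It held 42.0 and 43.9 CPM in +HOT and 59.5 and 54.9 CPM in -HOT, with both +HOT libraries lower. Its log2 fold change of -0.42 (SE 0.09, adjusted p = 0.00016) lay just past the minimum of 0.40. It fell short of it with library totals alone (-0.34), with abundance-trended offsets (-0.21), without the first +HOT library (-0.38) and without the first -HOT library (-0.36).

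The promoters of the SNAI repressors and of Zeb1 were lower in both +HOT libraries but changed by less than the minimum. At Snai1, whose product is the first of these repressors to be induced in many EMT models, 28.8 and 26.4 CPM in +HOT stood against 33.6 and 33.3 CPM in -HOT (log2 fold change -0.28, SE 0.10, adjusted p = 0.015; chromosome 2, 167363185 to 167365026). At Snai2 the +HOT libraries had 37.7 and 32.0 CPM and the -HOT libraries 40.8 and 45.3 CPM (-0.30, SE 0.10, adjusted p = 0.0077; chromosome 16, 14704954 to 14707350). Zeb1, a target of the miR-200 family, had 12.7 and 14.5 CPM in +HOT and 17.7 and 15.7 CPM in -HOT (-0.31, SE 0.11, adjusted p = 0.016; chromosome 18, 5592619 to 5594048). With abundance-trended offsets the changes shrank to -0.07 at Snai1, -0.10 at Snai2 and -0.13 at Zeb1, with 0.48, 0.31 and 0.31 as adjusted p, and with the GC trend removed Snai1 was at -0.05 (adjusted p = 0.66). Leaving out the first +HOT library brought Snai2 to -0.43, and leaving out the second brought Zeb1 to -0.40, both past the minimum.

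Several of these genes have more than 1 start site, and the accessible intervals around them did not move together. A second Zeb1 interval 350 bp before the outermost start was lost, with 5.76 and 5.96 CPM in +HOT and 8.19 and 8.27 CPM in -HOT (-0.49, SE 0.14). With a GC content of 62.4%, it was at -0.27 and not called once the GC trend was removed (adjusted p = 0.11). It overlaps an intron of Gm10125, so its reads cannot be assigned to either gene. At Zeb2, a repressor mutated in Mowat-Wilson syndrome in humans, the strongest promoter interval did not change beyond its error, with 31.7 and 25.5 CPM in +HOT and 29.4 and 26.5 CPM in -HOT (0.04, SE 0.10, adjusted p = 0.80), and the libraries of the conditions overlapped. The interval at the outermost Zeb2 start was lost, with 11.6 and 10.8 CPM in +HOT and 18.1 and 14.9 CPM in -HOT (-0.56, SE 0.11, adjusted p = 2.3e-05). With abundance-trended offsets it was at -0.396, short of the minimum, and the strongest interval at 0.24, also uncalled. The difference between both Zeb2 intervals was not tested.

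**Figure D2:**
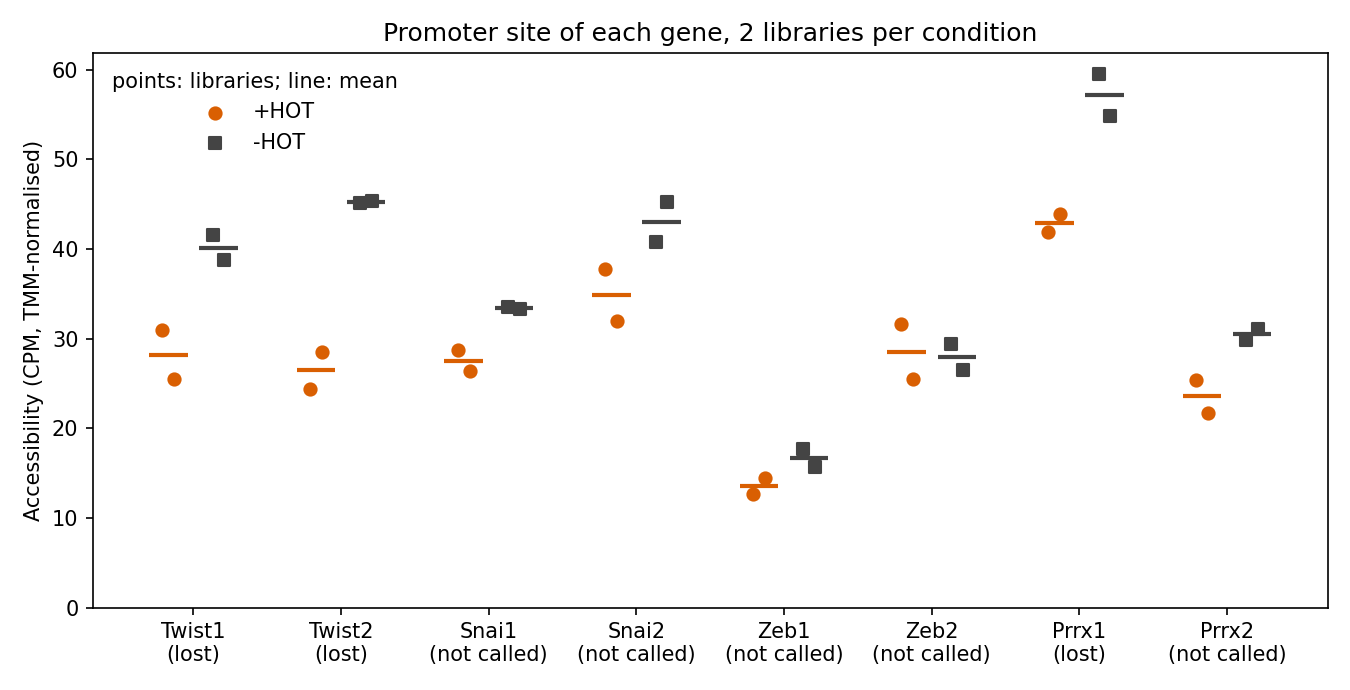
TMM-normalised CPM of the promoter site of 8 genes in the 2 +HOT libraries (orange circles) and the 2 -HOT libraries (grey squares), with the mean as a line. The +HOT libraries lie below the -HOT libraries at every gene except Zeb2, as they do at 65.5% of all gene promoter sites, and the gap is widest at Twist2 with 26.5 against 45.3 CPM.

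Prrx2 had 5 intervals near its 2 start sites, and they moved in opposite directions. The strongest lay 2697 bp after the inner start (chromosome 2, 30702417 to 30704136) and held 25.4 and 21.8 CPM in +HOT and 29.9 and 31.1 CPM in -HOT. Its log2 fold change was -0.37 (SE 0.10, adjusted p = 0.0014), below the minimum, and -0.16 with abundance-trended offsets (adjusted p = 0.11), although it passed with distal TMM factors (-0.44) and without the first +HOT library (-0.49). The interval 766 bp after the inner start, which represents the promoter when a window of 1000 bp is used, had 15.9 and 13.3 CPM in +HOT and 14.3 and 12.8 CPM in -HOT (0.11, SE 0.11). An interval 1576 bp after the outer start was gained, with 6.71 and 6.01 CPM in +HOT and 4.86 and 4.55 CPM in -HOT (0.44, SE 0.16, adjusted p = 0.020). This call was lost with DESeq2, with distal TMM factors, with abundance-trended offsets and without the first +HOT or either -HOT library.

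A weak intronic Prrx2 interval just upstream of the inner start was among the sites that fell furthest (chromosome 2, 30698100 to 30698469). It held 2.53 and 2.62 CPM in +HOT and 5.50 and 5.79 CPM in -HOT, with replicates close to each other in both conditions. The log2 fold change was -1.13 (SE 0.19, adjusted p = 4.9e-07), between -1.26 and -1.06 under all alternatives. Its sequence, shown above, has 3 E-boxes and none of them is CAGGTG.

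Sites inside the gene bodies were then examined. Outside the promoters, 45 sites lay within the 9 genes, 14 of them lost and 1 gained. Their median log2 fold change was -0.37. Some of the 45 lay within 3000 bp of a start of another gene and were classed as promoter intervals, not intragenic. By site class, 57 sites of the 9 loci were intragenic, sites in neighbouring genes included. Among these 57 sites 13 were lost (22.8%) and 3 gained (5.26%), and the median was -0.21. Over all intragenic intervals 15.5% were lost, 19.5% were gained and the median was -0.01. The 16 sites in the promoter windows of the 9 genes, counted apart from the 45, had 6 lost and 1 gained.

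The upstream part of the Prrx1 gene body had a run of lost sites. Between the promoter and the inner start site, 5 of the 6 intervals were lost, and 1, at 1.02 and 1.67 CPM in +HOT and 2.03 and 1.84 CPM in -HOT, was not called. The site 5783 bp after a Prrx1 start fell furthest of all 140 (chromosome 1, 165237779 to 165238254). It lies in the Prrx1 gene body, but the annotated start nearest to it belongs to another gene. It held 1.54 and 0.72 CPM in +HOT, or 44 and 16 reads, and 4.17 and 3.38 CPM in -HOT, or 150 and 101 reads. The log2 fold change was -1.69 (SE 0.26, adjusted p = 3.2e-08), and it ranged from -2.38 to -1.29 over all alternatives. The lower end came from leaving out the first +HOT library and the upper end from leaving out the second.

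The neighbouring Prrx1 sites moved less. The site 11061 bp after a start had 2.001 and 2.03 CPM in +HOT and 4.44 and 3.92 CPM in -HOT (-1.05, SE 0.22, adjusted p = 3.5e-05), and its centre also lies in an exon of the annotated gene Gm17698. The remaining lost sites of this run changed by -0.48, -0.45 and -0.69 (SE 0.15, 0.13 and 0.13). The first lost its call with DESeq2, without the first +HOT library and without the first -HOT library, and the second with DESeq2, library totals, abundance-trended offsets and without the second -HOT library (-0.30). Further downstream in the same gene, the strong interval 7986 bp after the inner start did not pass, with 28.2 and 24.8 CPM in +HOT and 27.6 and 29.7 CPM in -HOT (-0.11, SE 0.10).

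The bodies of the ZEB genes were examined outside the promoter windows. In Zeb1 4 of 13 sites were lost and 0 gained, and in Zeb2 2 of 10 were lost and 1 gained, beside 15.5% lost and 19.5% gained of all intragenic intervals. In Zeb1 the sites 9495, 15724, 25626 and 92783 bp after the start were lost at -0.64, -0.57, -0.58 and -0.54. The calls at 15724 and 92783 bp were lost with DESeq2 and without the first -HOT library, that at 15724 bp also without the first +HOT library (-0.36), and that at 92783 bp also with library totals or when the second +HOT library was left out (-0.19). The first of them had 4.63 and 6.01 CPM in +HOT and 8.17 and 8.27 CPM in -HOT (SE 0.15, adjusted p = 0.00020). In Zeb2 the site 90639 bp after the start had 8.43 and 7.04 CPM in +HOT and 12.6 and 12.2 CPM in -HOT (-0.67, SE 0.13, adjusted p = 4.7e-06). A Zeb2 intron also contained the only gained site that lay in the body of the 9 genes outside the promoter windows. This site, 47506 bp after the start, had 2.77 and 2.75 CPM in +HOT and 1.47 and 1.27 CPM in -HOT (1.00, SE 0.26, adjusted p = 0.0010).

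The Twist2 intron carried both steady and falling sites. The strong interval 21855 bp after the start held 28.1 and 27.8 CPM in +HOT and 29.7 and 30.0 CPM in -HOT (-0.10, SE 0.10) and was not called. The sites 29256 and 38060 bp after the start were lost at -0.70 (SE 0.27) and -0.42 (SE 0.17), with 0.026 and 0.040 as adjusted p. Both were weak and lost their call with DESeq2, with library totals and without the first +HOT or the first -HOT library, where the change at 38060 bp was -0.48 and -0.23. The call at 29256 bp also ended without the second -HOT library, and that at 38060 bp with the GC trend removed or the second +HOT library left out. On the other side of the gene, far upstream of the start, a lost site had 1.40 and 1.90 CPM in +HOT and 2.94 and 2.98 CPM in -HOT (-0.86, SE 0.25, adjusted p = 0.0032). It was not called with DESeq2 or without the first +HOT library, with 0.0504 and 0.083 as adjusted p.

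**Figure D3:**
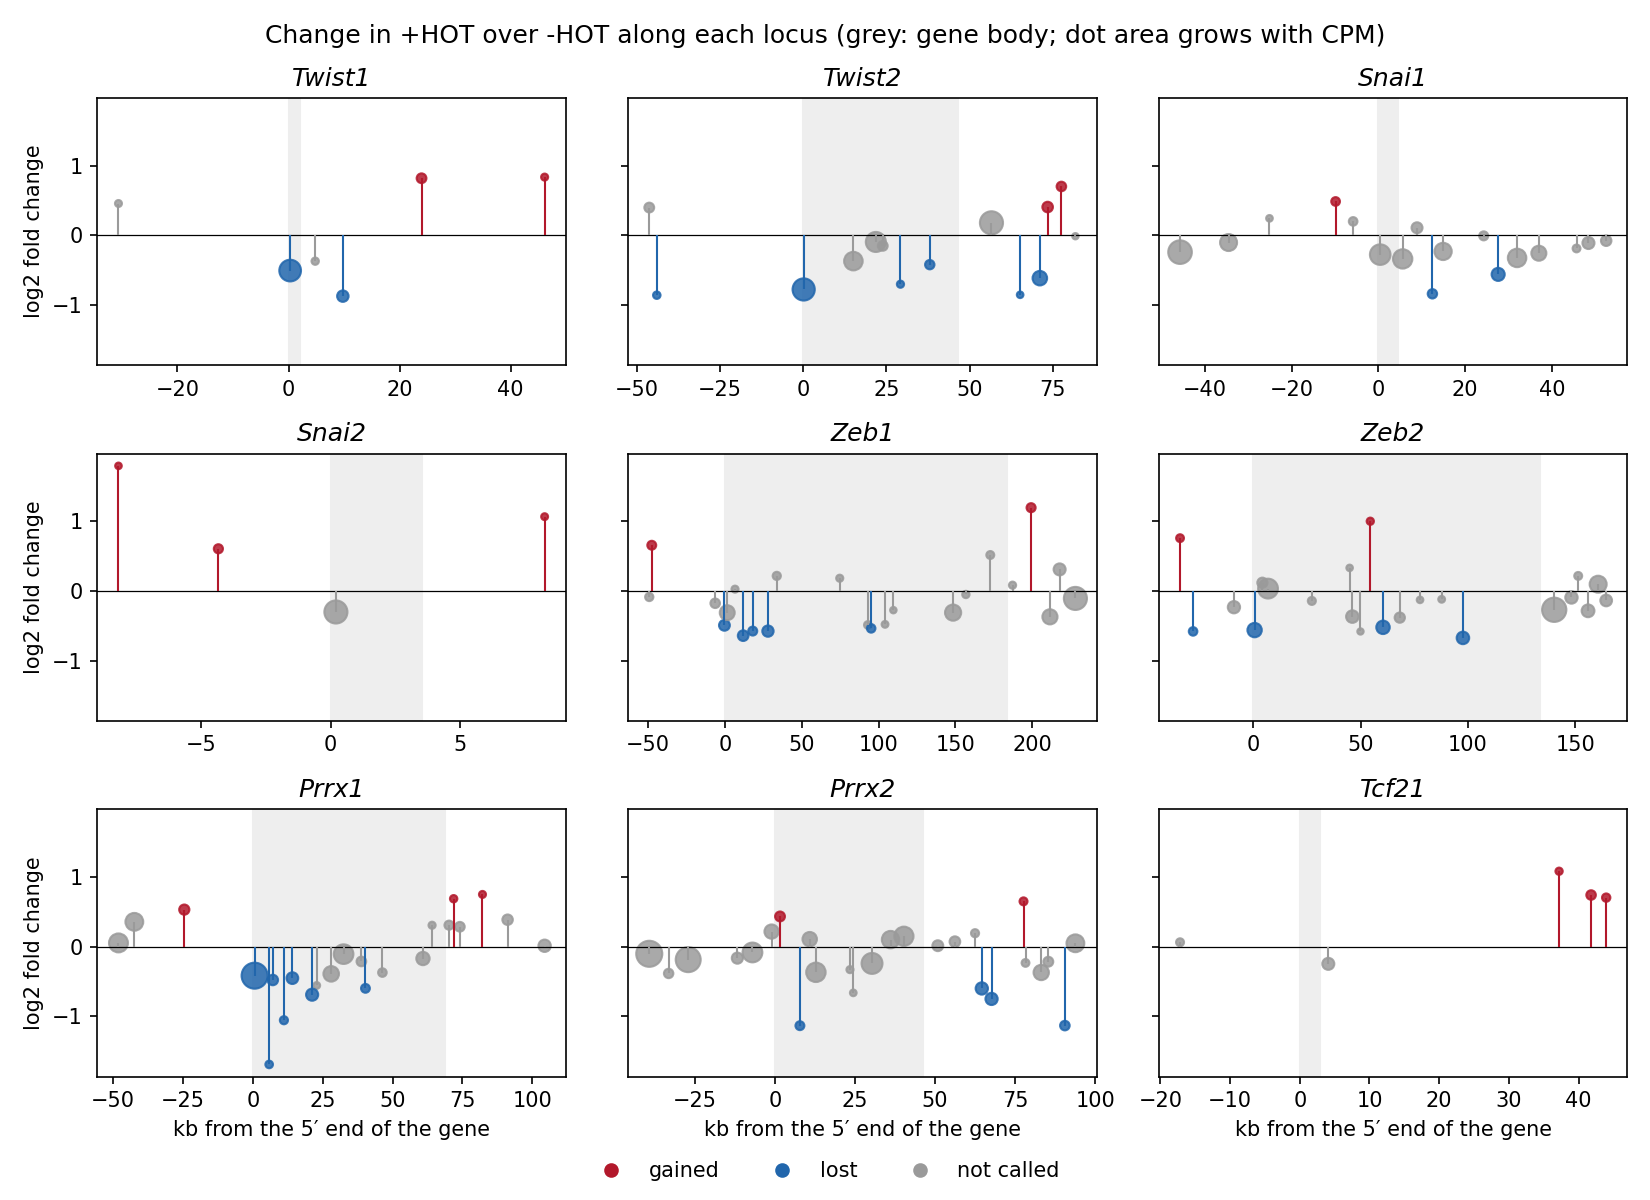
Log2 fold change of every site against its distance in kb from the outermost 5′ end of the gene, with the gene body shaded, the dot area growing with mean CPM, and gained sites red, lost sites blue and other sites grey. Lost sites cluster at the start of Prrx1 and Zeb1, while the gained sites of Snai2, Tcf21 and Twist1 lie outside the genes.

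Of the 79 sites in the flanks 18 were gained (22.8%) and 10 lost (12.7%), and the median log2 fold change was -0.01. Of 45 flanking sites whose nearest start site was that of the gene itself, 15 were gained and 5 lost, and the median log2 fold change was 0.18. Over all intergenic intervals 28.4% were gained and 9.28% lost, with a median of 0.15. Of the 34 flanking sites nearer to the start of another gene 3 were gained and 5 lost. The gained sites were weak, with a median of 3.61 CPM and a range of 1.36 to 6.60 CPM, and a GC content of 42.7% at the median. The lost sites had a median of 6.91 CPM and 48.2% GC. Over all tested sites those under 5 CPM were gained in 30.6% and lost in 9.19%, and those of 20 CPM or more in 1.25% and 16.5%.

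The largest gain was found 8212 bp upstream of Snai2 (chromosome 16, 14697428 to 14698039). The site held 1.69 and 2.57 CPM in +HOT (48 and 57 reads) and 0.81 and 0.37 CPM in -HOT (29 and 11 reads). All levels were low, yet the conditions were well apart. The log2 fold change was 1.80 (SE 0.34, adjusted p = 7.0e-06), and between 1.37 and 2.50 when single libraries were left out.

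The other Snai2 sites rose by less. The site 4343 bp upstream had 5.34 and 5.37 CPM in +HOT and 3.69 and 3.31 CPM in -HOT (0.61, SE 0.18, adjusted p = 0.0038). At a GC content of 33.4%, it was not called once the GC trend was removed (0.28), nor with DESeq2 or without the second -HOT library, with 0.057 and 0.052 as adjusted p. The site 8288 bp downstream had 2.67 and 1.85 CPM in +HOT and 1.22 and 0.94 CPM in -HOT (1.07, SE 0.29, adjusted p = 0.0016), but leaving out the first +HOT library ended the call (adjusted p = 0.11). Summed over its 4 intervals, the Snai2 locus had 47.4 and 41.8 CPM in +HOT and 46.6 and 49.9 CPM in -HOT, so the conditions overlapped. The promoter held most of these reads.

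At Tcf21 the 3 gained sites lay together on the downstream side of the gene. The site 37211 bp from the start had 3.02 and 2.62 CPM in +HOT and 1.42 and 1.24 CPM in -HOT (1.08, SE 0.26, adjusted p = 0.00039), and it was gained under every alternative. The site at 41803 bp had 6.88 and 5.55 CPM in +HOT and 3.03 and 4.52 CPM in -HOT (0.74, SE 0.17, adjusted p = 0.00024), and that at 43970 bp changed by 0.71 (SE 0.21). Without the first -HOT library these were at 0.46 and 0.57 and not called, and the site at 43970 bp was not called with DESeq2 or without the first +HOT library (0.43) either. These sites are weak, but in each the +HOT libraries lay above the -HOT libraries. The strongest interval, 4097 bp after the start, did not pass, with 7.86 and 8.80 CPM in +HOT and 9.22 and 10.5 CPM in -HOT (-0.25, SE 0.13).

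The flanks of Twist1 contained changes in both directions. The site 9782 bp after the start, whose sequence is shown above, was lost with 5.09 and 6.41 CPM in +HOT and 10.4 and 10.5 CPM in -HOT (-0.87, SE 0.14, adjusted p = 9.3e-08). The site at 23956 bp was gained with 6.63 and 7.00 CPM in +HOT and 4.22 and 3.45 CPM in -HOT (0.82, SE 0.17, adjusted p = 2.1e-05). A weaker site at 46126 bp was gained (0.84, SE 0.28, adjusted p = 0.011), but without the first +HOT library, which held 3.02 CPM against 1.63 CPM in the other, its change was 0.29 and it was not called. The call was also lost without the second -HOT library (0.55), with DESeq2, after removal of the GC trend and with abundance-trended offsets.

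For Snai1 the site 12436 bp after the start was lost, with 3.30 and 3.57 CPM in +HOT and 6.19 and 6.06 CPM in -HOT (-0.84, SE 0.17, adjusted p = 3.7e-05). The site 9864 bp upstream had 4.46 and 4.52 CPM in +HOT and 3.25 and 3.15 CPM in -HOT. It was called gained (0.49, SE 0.19, adjusted p = 0.033) but missed the threshold with DESeq2, with distal TMM factors, with abundance-trended offsets and without any 1 of the 4 libraries, at adjusted p-values up to 0.17.

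Downstream of Zeb1, 196852 bp from the start, the gain was larger and close between replicates, with 5.97 and 6.10 CPM in +HOT and 2.61 and 2.64 CPM in -HOT (1.20, SE 0.19, adjusted p = 5.9e-08). Upstream of Prrx1 by 24560 bp, a site had 6.88 and 7.36 CPM in +HOT and 4.81 and 5.02 CPM in -HOT (0.53, SE 0.15, adjusted p = 0.0028), which DESeq2 did not call (adjusted p = 0.054). The weak Prrx1 site at 57695 bp had 2.21 and 2.30 CPM in +HOT and 1.31 and 1.37 CPM in -HOT (0.75, SE 0.28, adjusted p = 0.021), and leaving out any library ended the call, with 0.063 to 0.12 as adjusted p.

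Some flanking sites lay in other genes. The flank of Prrx2 includes Ptges, the gene of an inducible prostaglandin E synthase, where 3 intronic sites were lost and 1 gained. The furthest fall was to 2.95 and 3.43 CPM in +HOT, against 6.97 and 6.93 CPM in -HOT (-1.13, SE 0.17, adjusted p = 3.0e-08). The gained site had 3.51 and 3.61 CPM in +HOT and 2.58 and 1.91 CPM in -HOT (0.65, SE 0.22) and lost its call with DESeq2, with abundance-trended offsets and without the second -HOT library. Next to Twist2, towards the histone deacetylase gene Hdac4, 2 sites were lost and 2 gained. The clearest of them had 10.9 and 11.6 CPM in +HOT and 18.3 and 16.1 CPM in -HOT (-0.62, SE 0.11, adjusted p = 2.8e-06), and another had 6.25 and 6.19 CPM in +HOT and 4.22 and 3.38 CPM in -HOT (0.70, SE 0.17, adjusted p = 0.00038). The other lost and gained sites there were uncalled with DESeq2 and without single libraries. When only the sites nearest to a start of their own gene were kept, 17 were gained and 21 lost, with a median of -0.17.

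At several loci the strongest interval outside the promoter was steadier. Twist1 and Snai2 were exceptions, as their strongest such sites, described above, were lost at -0.87 and gained at 0.61. Downstream of Twist2, 56600 bp from the start and 10033 bp past the gene, an interval held 43.6 and 39.2 CPM in +HOT. It held 39.0 and 34.2 CPM in -HOT (0.18, SE 0.10). Downstream of Zeb1, 225687 bp from the start, the +HOT libraries had 39.2 and 35.8 CPM and the -HOT libraries 40.2 and 40.6 CPM (-0.11, SE 0.10). Neither was called. The strongest flanking intervals of Zeb2 (-0.27, nearest to Gtdc1), Snai1 (-0.24, in an intron of Spata2) and Prrx2 (-0.10, in an exon of 1700001O22Rik) were not called either. Each of them belongs to a neighbouring gene by its nearest start site. That of Snai1 is a promoter interval of Rnf114, centred 147 bp before a start of that gene.

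**Figure D4:**
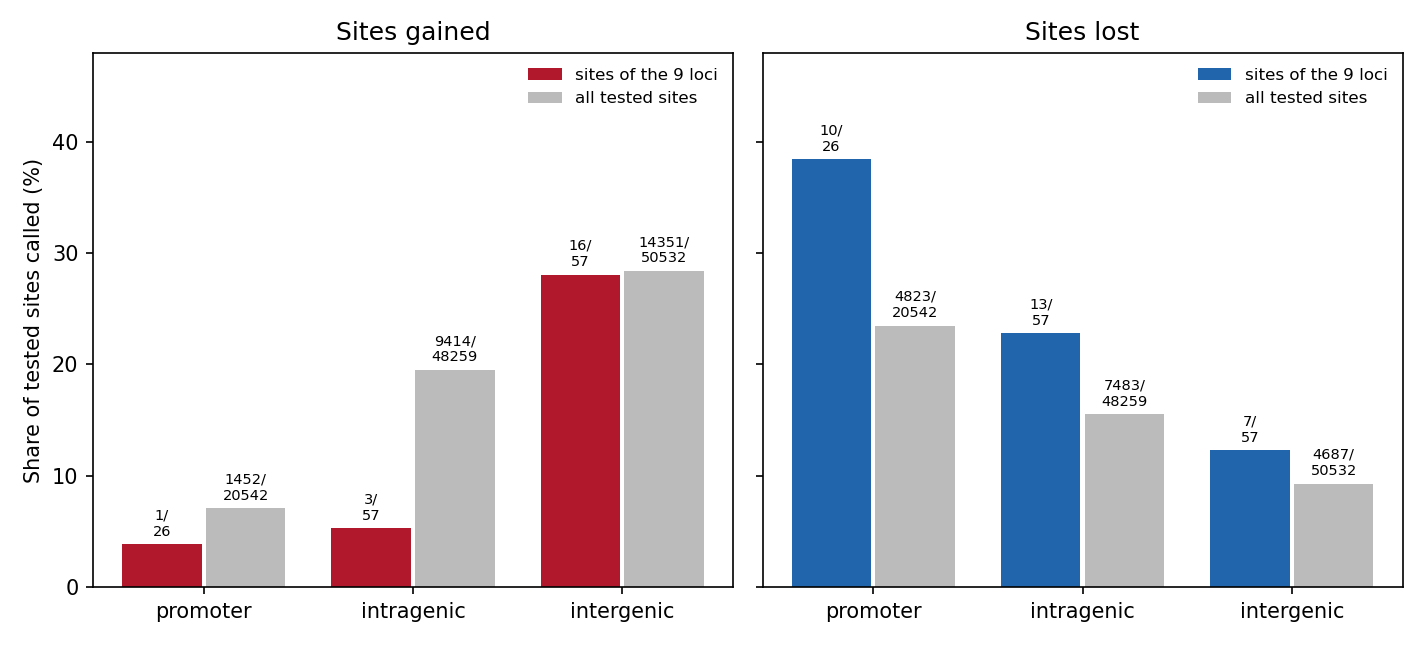
Share of tested sites called gained (left) and lost (right) in promoter, intragenic and intergenic positions, for the sites of the 9 loci (coloured) and all tested sites (grey), with counts above the bars. Among the 57 intragenic sites of the 9 loci 3 were gained and 13 lost, while the intergenic gained share of 28.1% lies beside 28.4% of all sites.

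Accessibility was also summed over each locus. Strong intervals weigh most in such sums, and no sums were made for other genes. The log2 ratio of the sums was -0.34 at Twist1, -0.23 at Snai1, -0.22 at Twist2, -0.20 at Zeb2, -0.17 at Zeb1, -0.15 at Prrx1 and -0.14 at Prrx2. Tcf21 was higher, with 25.6 and 23.4 CPM in +HOT and 18.7 and 22.2 CPM in -HOT (0.26). These sums are a description, since 2 libraries per condition cannot give an exact two-sided permutation p below 0.33.

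The accessibility of the pathway around these factors was examined at promoters, with 1 site per gene. Of all 15763 genes that have such a site, 23.1% were lost and 4.78% gained, and their median log2 fold change was -0.22. Of 20 epithelial genes, listed here as targets of EMT factors, 18 had a promoter site. Among these 10 were lost and 0 gained, and the median was -0.42. With the GC trend removed 5 were lost, against 16.5% of all genes, with DESeq2 6 (21.9% of all genes), and 6 when either the second +HOT library (19.9%) or the first -HOT library (19.4%) was left out. Their median level was low, at 6.80 CPM in +HOT and 8.45 CPM in -HOT. Cdh1, which encodes E-cadherin, had 3.34 and 3.57 CPM in +HOT and 6.47 and 4.02 CPM in -HOT (-0.62, SE 0.19, adjusted p = 0.0044). The first -HOT library carried this call: without it the change was -0.23 (adjusted p = 0.53), and the call was also lost with DESeq2 and with the GC trend removed. The largest fall was that of Cgn, the tight junction protein cingulin, with 5.27 and 5.51 CPM in +HOT and 10.2 and 10.6 CPM in -HOT (-0.95, SE 0.14, adjusted p = 8.3e-09). Krt19 (-0.87), a keratin of simple epithelia, and the splicing regulators Esrp2 (-0.70) and Esrp1 (-0.50) were lost as well, of which Esrp1 was not called with DESeq2, with the GC trend removed (-0.31), without the second +HOT or without either -HOT library.

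Of 24 mesenchymal genes associated with EMT all had a promoter site. Here 5 were lost and 0 gained, beside 23.1% lost and 4.78% gained of all genes. The median was -0.18, beside -0.22 for all genes. With library totals, with abundance-trended offsets or without the second +HOT library 3 were lost (12.5%), against 16.5%, 13.1% and 19.9% of all genes. Their median level was 37.4 CPM in +HOT and 43.6 CPM in -HOT. Thy1, a fibroblast surface glycoprotein, had 6.74 and 9.21 CPM in +HOT and 12.9 and 13.4 CPM in -HOT (-0.74, SE 0.13, adjusted p = 6.0e-07), and the collagen gene Col1a2 fell by 0.68 on the log2 scale (SE 0.09, adjusted p = 1.9e-09). Of the 12 fibroblast markers, which share genes with this list, 4 were lost (Col1a2, Thy1, S100a4 and Fap) and 2 gained, with a median of -0.22. The proteoglycan genes Lum (0.97, SE 0.17, adjusted p = 2.1e-06) and Dcn (0.60, SE 0.11, adjusted p = 2.2e-06) were gained. Lum had 5.90 and 7.04 CPM in +HOT and 3.03 and 3.55 CPM in -HOT.

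Among partners and regulators of the factors few promoters were called, in short lists, beside 23.1% lost and 4.78% gained of all genes. The median level in -HOT was 31.6 to 43.5 CPM in these lists and 23.7 CPM over all genes. The E proteins Tcf3, Tcf4 and Tcf12, which dimerise with TWIST and TCF21, and their inhibitors Id1 to Id4 had 0 gained and 0 lost promoters of 7, with changes between -0.22 at Tcf4 and 0.10 at Id2. Of 11 genes of corepressors that act with SNAI and ZEB, 1 was lost, Rcor1 (-0.49, SE 0.10, adjusted p = 1.4e-05), which was under the minimum after removal of the GC trend (-0.29) or of the trend with signal strength (-0.28). Of 11 genes of TGF-beta signalling, a main inducer of EMT, 1 was lost, that of the ligand Tgfb1, with 33.0 and 30.3 CPM in +HOT and 51.8 and 47.2 CPM in -HOT (-0.65, SE 0.10, adjusted p = 1.5e-08). Of 9 genes that control SNAI and TWIST stability, 1 was lost, Fbxl5 (-0.60, SE 0.11, adjusted p = 4.4e-06), which encodes an F-box protein of a ubiquitin ligase.

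Relatives of the factors were also counted. Of 14 related helix-loop-helix, SNAI-type and paired homeobox genes 11 had a promoter site. Accessibility was lost at 5 and gained at 0 of them, beside 23.1% and 4.78% of all genes. The median was -0.50, beside -0.22 for all genes. Hand2, a helix-loop-helix factor of heart and limb, had 4.49 and 6.05 CPM in +HOT and 8.86 and 9.34 CPM in -HOT (-0.80, SE 0.15, adjusted p = 2.6e-06). Scrt1 (-0.74), Alx4 (-0.66), Snai3 (-0.50) and Msc (-0.50) were the others. With the GC trend removed 3 were lost and the median was -0.24 (16.5% and -0.13 for all genes), Snai3 (-0.38) and Msc (-0.24) being uncalled. Both were also uncalled without the second +HOT library, Msc with DESeq2 and without the first -HOT library, and Snai3 with abundance-trended offsets. Of the promoter sites of blood markers 3 of 4 were lost, and of those of endothelial markers 5 of 8, beside 23.1% of all genes. The furthest falls were those of Runx3 at -1.25 and Kdr at -0.99. With the GC trend removed 3 of 4 and 4 of 8 were lost, beside 16.5% of all genes.

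Finally, footprints were compared. The footprint table gives, for each motif, a protection score, which measures how far cuts are depleted over the motif relative to its sides, and a tag count score for the reads around it. The authors had merged the replicates beforehand, so there is 1 value per condition and no error. Differences were placed among the 559 motifs with at least 1000 sites. The motif TCF21(var.2), with 2159 sites, had a protection score of 0.576 in +HOT and 0.517 in -HOT and a tag count score of 0.757 in +HOT and 0.666 in -HOT. The sum of both differences was 0.149, which ranked 7 of 559 from the top. The motif SNAI2, with 1130 sites, had a protection score of 0.635 in +HOT and 0.522 in -HOT, but tag counts of 0.658 in +HOT and 0.659 in -HOT. Its summed difference of 0.112 ranked 15.

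The other motifs of these factors differed less. The summed difference was 0.052 for TWIST1 (3212 sites), 0.047 for SNAI3 (536 sites), 0.037 for PRRX2 (393 sites), 0.035 for SNAI1 (2632 sites), 0.015 for Tcf21 (3972 sites) and 0.008 for ZEB1 (4164 sites). All 8 sums were above 0, as were 271 of the 559. Both TCF21 motifs stand for the same protein yet lie far apart in this order, and motifs of 1 family share E-boxes, so the rows are not independent and do not show which protein was bound. The locus of Tcf21 itself had no promoter interval, as described above.

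**Figure D5:**
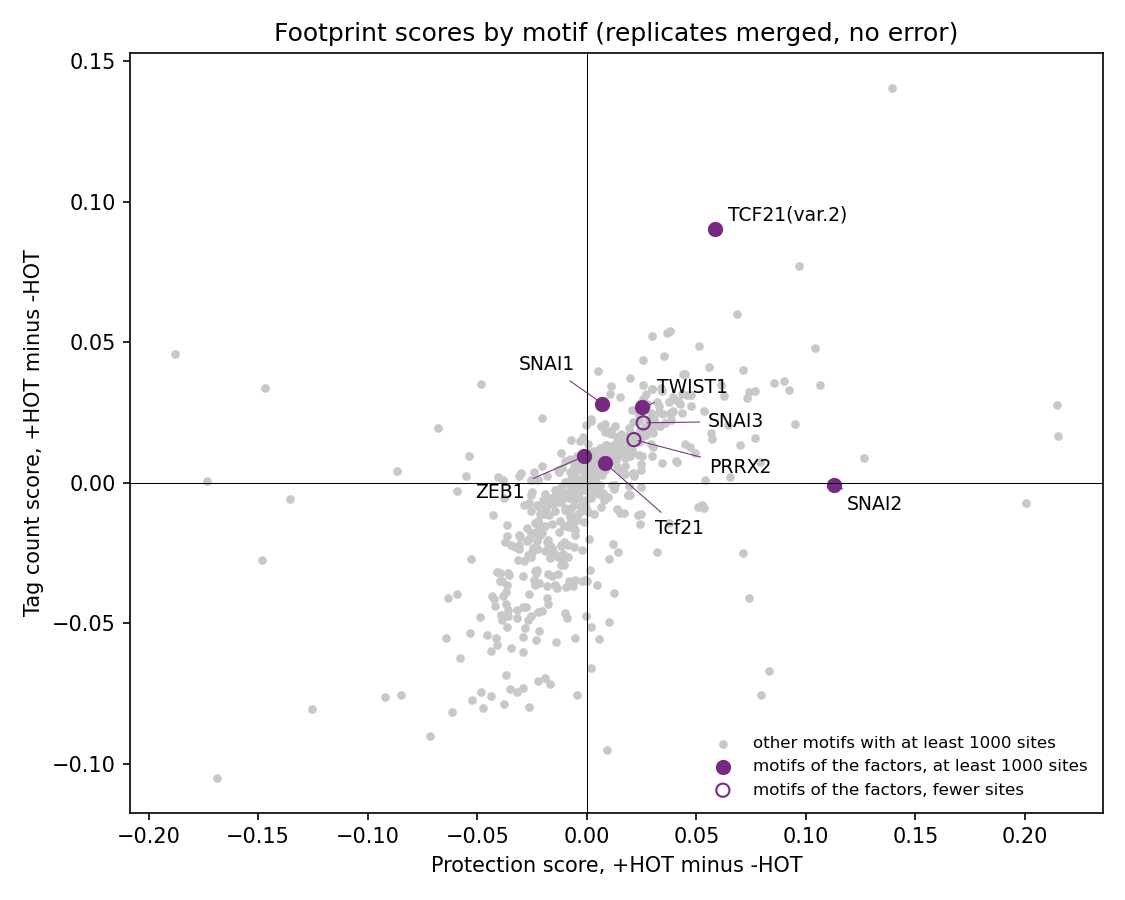
Difference in tag count score against difference in protection score, +HOT minus -HOT, for the 8 motifs of these factors (purple, open with fewer than 1000 sites) and all other motifs with at least 1000 sites (grey). TCF21(var.2) stands out on the tag count axis at 0.090 and SNAI2 on the protection axis at 0.113.

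The letters of the recognised elements were counted in the central 300 bases of the 140 sites. CANNTG was present in 69.3% of them and in 78.1% of all intervals. CAGGTG was present in 18 of the 140, of which 1 was gained and 5 lost, and over all intervals with it 19.4% were gained and 16.1% lost. TAATTA was present in 8, of which 4 were gained and 2 lost, while 25.8% of all intervals with it were gained and 11.5% lost. Among the gained sites with TAATTA were the largest gain upstream of Snai2 and the site 24560 bp upstream of Prrx1. In the 300 bases before the 18 annotated starts of the 9 genes, CANNTG was found at 11, and CAGGTG at 3. Starts of the same gene can lie close together, so some stretches overlap and share their letters. Those with CAGGTG belong to Snai1 and to overlapping stretches of Zeb1. Over all protein-coding starts 20.4% have CAGGTG in this stretch.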

How the data were processed

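The authors trimmed paired reads (Trim_Galore), aligned them to mm9 with BWA, removed duplicates and blacklisted regions and called narrow peaks with MACS2. Versions, and how peaks became 1 interval set, were not stated. Removal of duplicates limits the height of strong sites, and closed chromatin outside peaks is not measured. The deposited raw counts per interval were tested. The deposited scaled signal and the deposited DESeq2 fold change and p-value columns were not used. The deposited footprint score columns come from RGT-HINT on merged replicates. A shift of read ends before footprinting was not stated.

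Starts were made 1-based (mm9, NCBIM37) and annotated with GENCODE vM1. Intervals passing filterByExpr (119603) were fitted with edgeR 4.0.16 in R 4.3.3 with TMM factors, 0.969 to 1.04. The test was checked on simulated counts. Distances run from the nearest start of the gene, negative upstream. Promoter means within 3000 bp. Replicates differed beyond sampling noise (chi-square per degree of freedom 2.38 in +HOT, 2.22 in -HOT) and were kept separate.

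Members and gene lists were chosen with earlier results of these data known. Named were each promoter site, the site changed furthest in each direction, the strongest other site and every motif; for lists, the promoter changed furthest. Further sites and genes were chosen after their values were seen. Alternatives were DESeq2 1.42.0, other scalings and filters, GC and abundance trends, single libraries left out, a replicate block and narrower flanks.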

Additional observations from a re-analysis of the deposited data

How the results depend on the processing

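All 8 promoter sites and 24 further sites kept their direction or stayed uncalled under the alternatives of the fit, and of 17 further sites called 11 kept their call throughout. With DESeq2 9 of the 140 sites were gained and 20 lost (15087 and 11960 of all sites); these 9 and 20 were all called by edgeR too. The cause was not tested. The median of the 140 sites was -0.076 with library totals alone (all sites 0.07), -0.22 with distal TMM factors (all sites -0.08), -0.12 with abundance-trended offsets, -0.18 with the GC trend removed, -0.23 within 20 kb, -0.37 in gene bodies alone and -0.17 for sites nearest to their own gene, an alternative chosen after seeing the data. Within 20 kb 9 sites were gained, and in gene bodies 2 were gained and 19 lost. Fewer than the 140 sites were counted there. These counts can therefore not be set beside the 21.3% gained and 14.2% lost of all tested sites. Without a fold minimum 46 were lost, against 24002 of all sites, and the promoters of Snai1 (-0.28), Snai2 (-0.30), Zeb1 (-0.31) and Prrx2 (-0.37) were called.

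Distal TMM factors brought Prrx2 to -0.44. The Twist1 promoter was not called with the GC trend removed (-0.28) or with abundance-trended offsets (-0.30), nor Prrx1 with library totals (-0.34) or abundance-trended offsets (-0.21). Without single libraries 12 to 18 sites were gained, 12 without the first -HOT library, and 25 to 30 lost, with 12 to 16 and 21 to 27 shared with the full fit. The promoter changes then ranged from -0.66 to -0.38 at Twist1, -0.48 to -0.36 at Prrx1, -0.49 to -0.27 at Prrx2, -0.43 to -0.19 at Snai2 and -0.40 to -0.21 at Zeb1. The labels do not say that replicate numbers pair libraries, and the deviations of same-numbered libraries correlated at 0.041; a fit with the replicate block gave 21 gained and 30 lost sites. The depth of 11 reads in the shallowest site and library limits the weakest sites.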
